A study of Homo sapiens with 12 samples.

Results

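The clustered replication-dependent histone genes supply most of the histone protein that packages newly copied DNA. Members were taken as all protein-coding GENCODE v44 genes on chromosomes 1 and 6 whose symbols start with H1-, H2AC, H2BC, H3C or H4C, which gave 68 of 20033 protein-coding genes. They comprised 6 genes for linker H1, 17 for H2A, 18 for H2B, 13 for H3 and 14 for H4. A total of 55 lie on chromosome 6 within 2167 kb, 11 lie on chromosome 1 within 76 kb, and H2AC25 and H2BC26 form a separate pair on chromosome 1 with starts 230 bp apart. All 68 canonical transcripts have 1 exon.

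Replication-dependent histone genes are transcribed mainly in S phase, and their mRNAs end in a conserved stem-loop in place of a poly(A) tail. The clusters are held in nuclear histone locus bodies, where the coactivator NPAT and the processing machinery gather. Cancer cells that divide keep this supply running, while variant histones encoded elsewhere are made outside S phase as well.

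The series measured chromatin accessibility by ATAC-seq, in which a transposase cuts and tags open DNA, in DU-145 and BT-549 cells. DU-145 is a castration-resistant prostate cancer line and BT-549 is a triple-negative breast cancer line. In both, all cells carried the same doxycycline-inducible hairpin against MUC1 (tet-MUC1shRNA), and they received either 0.1% DMSO as vehicle or doxycycline (DOX) for 7 days. Each of the 4 groups had 3 libraries, 12 in all, and MUC1 encodes a transmembrane mucin that is abundant in many carcinomas. Both are established lines, 1 hairpin under a tetracycline-inducible promoter was used, and no library of a control hairpin with DOX was among the 12, so the drug and the loss of MUC1 cannot be told apart. The methods call the replicates of a condition biologically independent and the labels add nothing on how they were grown, so p-values measure the spread between these libraries.

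Coverage was read from the deposited tables of 100-bp bins, with 709366 bins for DU-145, 472994 for BT-549 and 321392 on both. Column sums (in units of 1e+06) in the DU-145 table were 13.9, 24.0 and 12.4 in vehicle and 16.3, 25.2 and 21.1 with DOX. In the BT-549 table they were 13.6, 11.7 and 9.14 in vehicle and 2.58, 2.5 and 3.27 with DOX. Every BT-549 library with DOX was thus shallower than every vehicle library of that line, and depth cannot be told apart from treatment there. The value of a promoter is the summed coverage of its bins within 1 kb of the transcription start, divided by the library sum and multiplied by 1e+06 (CPM). Of the 68 members, 49 had bins in DU-145 and 55 in BT-549, and each of these passed the filter of a total of at least 10. The 6 with bins in BT-549 only were H2BC3, H3C3, H4C5, H3C7, H2BC9 and H3C12. A further 13 had bins in neither line, namely the near-identical copies H4C14, H4C15, H3C14 and H3C15 and the genes H2AC1, H2BC1, H1-1, H1-6, H2BC6, H3C6, H4C6, H4C7 and H4C9.

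The lines were checked at marker promoters. The epithelial genes EPCAM, CDH1, KRT8 and KRT18 all had bins in DU-145, 4 of 4, and 0 of 4 had any in BT-549. Of the mesenchymal genes VIM, ZEB1, CDH2 and FN1, all 4 had bins in BT-549 and 3 had them in DU-145, where CDH2 had none. With DOX, edgeR called 2 epithelial promoters higher and 2 lower in DU-145, 0 of 3 mesenchymal ones in DU-145, and 2 higher and 1 lower of 4 mesenchymal ones in BT-549. At the MUC1 promoter, accessibility was 48.2 ± 2.29 (SD, n = 3) CPM in DU-145 vehicle and 36.0 ± 2.09 with DOX. The edgeR difference was -0.42 on the log2 scale with an adjusted p of 0.000216. In BT-549 it was 88.8 ± 7.59 in vehicle and 77.5 ± 3.87 with DOX, and edgeR gave -0.19 with an adjusted p of 0.225. The hairpin acts on the transcript, so these values do not check the knockdown.

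The promoters that the comparisons turn on are printed from RefSeq sequence of build GRCh38.p14. They are the upstream 250 bases of H4C11, H4C13, H1-3 and H1-5 and the 222 bases between the starts of H2AC7 and H2BC7, which are transcribed away from each other. H4C11 lies at chr6:27823842-27824091 on the plus strand and H4C13 at chr6:27873535-27873784 on the minus strand. H1-3 lies at chr6:26234988-26235237 and H1-5 at chr6:27867589-27867838, both on the minus strand, and H2BC7 at chr6:26199294-26199515 on the plus strand. Capitals mark matches on either strand to the TATA box TATAAA, the CCAAT box CCAAT, the octamer ATTTGCAT and the H1 box AAACACA.
H4C11: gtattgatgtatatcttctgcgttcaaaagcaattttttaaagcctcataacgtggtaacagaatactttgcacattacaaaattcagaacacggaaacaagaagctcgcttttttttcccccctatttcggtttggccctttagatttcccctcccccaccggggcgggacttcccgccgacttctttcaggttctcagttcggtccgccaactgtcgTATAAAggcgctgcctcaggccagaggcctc
H4C13: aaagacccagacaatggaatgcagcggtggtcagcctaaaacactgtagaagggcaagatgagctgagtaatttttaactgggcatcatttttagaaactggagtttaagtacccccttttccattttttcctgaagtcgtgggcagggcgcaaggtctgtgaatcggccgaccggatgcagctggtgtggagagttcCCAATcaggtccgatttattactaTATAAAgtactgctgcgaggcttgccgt
H1-3: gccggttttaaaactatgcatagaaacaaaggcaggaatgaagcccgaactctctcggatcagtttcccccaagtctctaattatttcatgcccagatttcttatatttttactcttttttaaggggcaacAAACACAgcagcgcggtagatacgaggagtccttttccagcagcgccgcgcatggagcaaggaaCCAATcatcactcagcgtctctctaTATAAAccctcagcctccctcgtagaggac
H1-5: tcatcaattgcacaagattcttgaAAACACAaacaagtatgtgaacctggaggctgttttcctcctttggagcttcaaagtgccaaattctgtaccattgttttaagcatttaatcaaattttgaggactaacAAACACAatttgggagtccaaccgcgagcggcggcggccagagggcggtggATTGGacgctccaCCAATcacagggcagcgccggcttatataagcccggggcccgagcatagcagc
H2BC7: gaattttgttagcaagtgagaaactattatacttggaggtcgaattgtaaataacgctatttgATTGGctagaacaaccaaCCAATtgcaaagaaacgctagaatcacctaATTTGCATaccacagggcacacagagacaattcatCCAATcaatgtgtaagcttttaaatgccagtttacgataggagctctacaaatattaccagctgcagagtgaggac

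RefSeq promoters were matched for 63 of 68 members and searched on both strands in the upstream 250 bases. TATAAA occurred in 41 of 63 members, 65.1%, against 11.1% of 27305 promoters. CCAAT, the core of the site for the factor NF-Y, occurred in 54 of 63, 85.7%, against 33.0%. It was in all 6 H1, 16 H2A, 18 H2B and 11 H3 promoters but in 3 of 12 H4 promoters. The octamer, which POU-domain factors recognise, occurred in 14 of 18 H2B and 11 of 16 H2A promoters and in 0 of those of H1, H3 and H4, against 1.66% of all promoters. The H1 box was in 6 of 6 H1 promoters and in no other member, against 4.95% of all promoters. Since 24 members sit in divergent pairs with starts under 500 bp apart, several H2A and H2B genes share the same letters and bins. Counts of called members therefore count some loci more than once. A match is a description of the sequence and not a binding site.

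In vehicle, member bins held a larger share of coverage in BT-549. They took 0.114%, 0.131% and 0.126% of the library sum in DU-145 vehicle and 0.271%, 0.283% and 0.285% in BT-549 vehicle. The bins themselves were 0.0761% of the DU-145 table, 540 bins, and 0.146% of the BT-549 table, 692 bins. Median CPM over members was 34.5 ± 3.08 (SD, n = 3) in DU-145 vehicle, where other promoters had 32.4 ± 0.189. In BT-549 vehicle it was 67.9 ± 1.52 for members and 34.7 ± 0.427 for other promoters. These levels are sums over a window and depend on how many bins a promoter has. As a mean per bin the order in DU-145 vehicle turned, with 2.28, 2.62 and 2.496 CPM over members and 2.97, 2.90 and 2.89 over other promoters, without overlap. In BT-549 vehicle members stayed above, at 4.26, 4.43 and 4.48 over members and 3.08, 3.08 and 3.10 over other promoters.

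Levels differed widely within each family. Among linker H1 genes, which bind the DNA between nucleosomes, H1-2 was highest at 40.6 ± 3.62 and 94.3 ± 6.5 in DU-145 and BT-549 vehicle, and H1-3 lowest at 8.02 ± 2.37 and 38.1 ± 4.35. For H2A, which pairs with H2B in dimers on either side of the H3 and H4 tetramer, H2AC20 led in DU-145 at 121 ± 8.72 and H2AC21 in BT-549 at 165 ± 7.24. The lowest were H2AC19 at 3.76 ± 1.44 in DU-145 and H2AC18 at 4.54 ± 1.40 in BT-549, which are near-identical copies whose windows share most of their 50-mers. For H2B, its dimer partner, the ends of the range were H2BC21 at 113 ± 7.68 and H2BC7 at 9.94 ± 2.41 in DU-145. In BT-549 they were H2BC4 at 158 ± 5.02 and H2BC10 at 10.3 ± 1.40. H3, which with H4 forms the nucleosome's centre, ranged from H3C1 at 59.1 ± 8.89 to H3C8 at 5.73 ± 0.908 in DU-145 and from H3C2 at 76.8 ± 6.63 to H3C13 at 2.30 ± 0.500 in BT-549. H4 had the same ends in both lines, with H4C1 at 92.5 ± 11.5 and 87.5 ± 13.7 and H4C13 at 0.628 ± 0.474 and 3.30 ± 0.700.

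**Figure D1:**
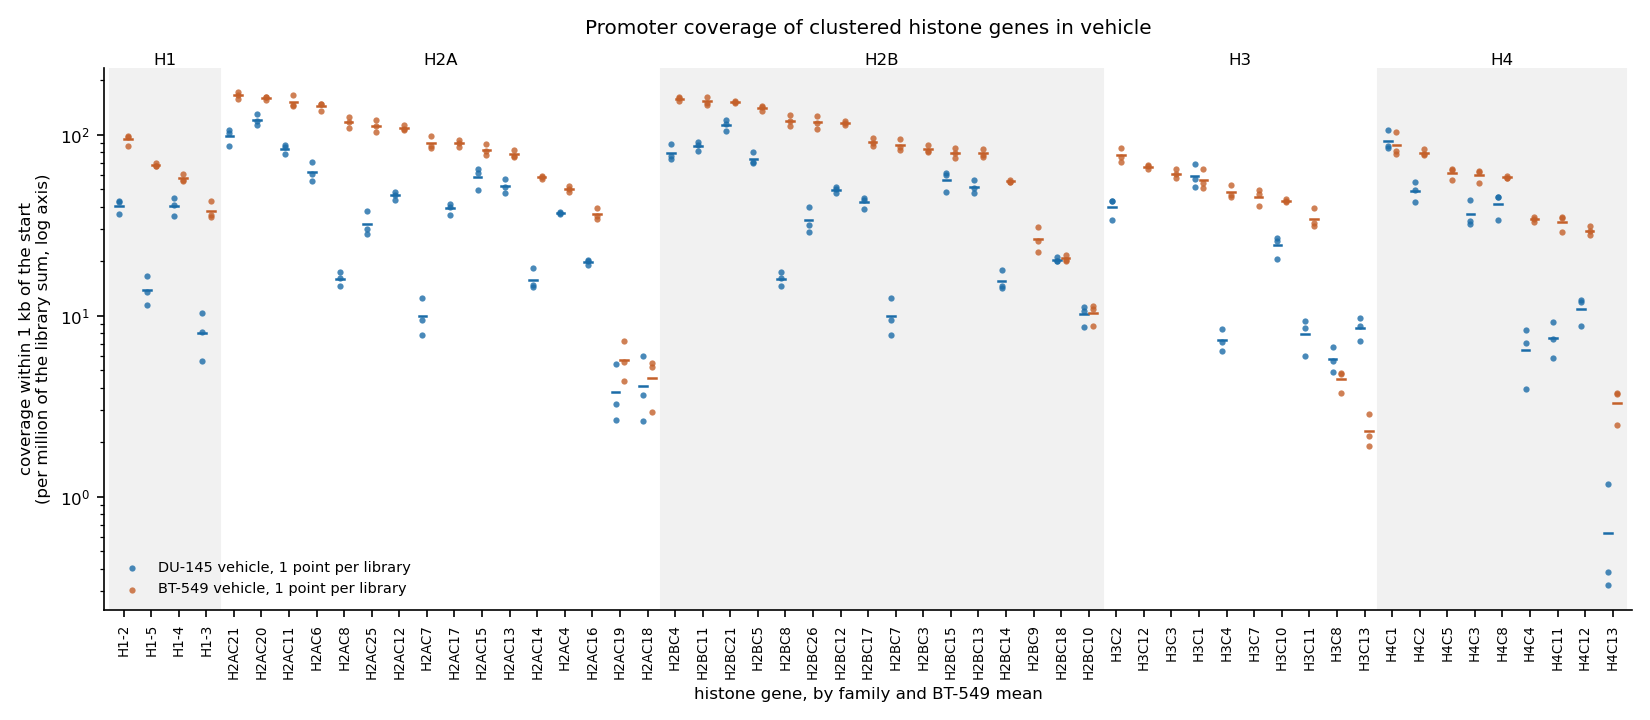
Coverage in CPM (log axis) at each member with bins, by family, with each point a vehicle library of DU-145 or BT-549. H4C13 was lowest among H4 genes in both lines, at 0.628 in DU-145 and 3.30 in BT-549.

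Peak summits from the deposited lists were counted for each library as members with a summit within 1 kb of the start. It was 41, 40 and 42 of 68 in DU-145 vehicle and 39, 39 and 40 with DOX, where 65.9%, 66.4% and 65.02% and then 65.4%, 66.3% and 66.2% of all 20033 genes had a summit. In BT-549 it was 43, 44 and 46 in vehicle and 47, 49 and 47 with DOX, while the share of all genes was 67.1%, 66.99% and 65.2% in vehicle and 59.1%, 60.01% and 58.2% with DOX. Members overlapped by any part of a peak went the other way in BT-549, from 55, 55 and 55 to 51, 53 and 52. Median widths of member peaks in BT-549 were 3166, 2888 and 2800 bp in vehicle and 1327, 1437 and 1412 bp with DOX, with no overlap between the groups. Peaks at all promoters in BT-549 were narrower too, at 1478, 1459 and 1406 bp in vehicle and 885, 944 and 921 bp with DOX. In DU-145, member peaks measured 1868, 2323 and 1727 bp in vehicle and 1822, 2089 and 2152.5 bp with DOX, and the groups overlapped. Peak calling depends on depth, and the part of depth in these widths was not tested.

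The lines were first compared in vehicle, to ask where histone gene chromatin is more open before DOX. Whether the tissue of origin bears on these values was not tested. This comparison used the bins on both tables, 49 members, and the vehicle libraries that also serve the DOX comparisons. Differences are DU-145 minus BT-549, so negative values are higher in BT-549. With edgeR at an adjusted p under 0.05, 0 of 49 members were higher in DU-145, where 33.6% of all promoters were called higher, and 43 were lower, where 40.1% were called lower. At an unadjusted p under 0.05 the counts were 0 higher and 43 lower, DESeq2 called 0 and 41, and limma called 0 and 43. Over all 12591 promoters these were 4317 higher and 5171 lower unadjusted, 4531 and 4501 with DESeq2 and 4236 and 5022 with limma. The median log2 difference was -0.92 over members and -0.07 over all 12591 promoters.

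The lower group took in 4 of 4 H1, 15 of 16 H2A, 12 of 14 H2B, 5 of 7 H3 and 7 of 8 H4 genes. Bins found in only 1 line were left out, so a call need not hold for the whole window. H3C13 was called lower on 2 shared bins, with means of 1.39 in DU-145 and 2.30 in BT-549. Over all bins of its own line it had 8.60 in DU-145, on 12 bins, and 2.30 in BT-549, on 2 bins. H1-5 measured 69.6, 66.8 and 67.3 CPM in BT-549 and 13.5, 16.5 and 11.4 in DU-145. All BT-549 libraries stood above all DU-145 libraries, and the edgeR difference was -2.28 (SE 0.12) with an adjusted p of 2.48e-25. The other linker genes differed by -2.06 at H1-3, -1.21 at H1-2 and -0.52 at H1-4. H2AC7 and H2BC7, whose shared bins gave the same values, measured 71.4, 82.5 and 72.9 in BT-549 and 7.80, 9.49 and 12.5 in DU-145. This pair had the largest difference of any member, at -2.94 (SE 0.12) with an edgeR adjusted p of 2.59e-29, and its libraries did not overlap. H2AC8 and H2BC8, another divergent pair, measured 72.2, 72.9 and 65.6 in BT-549 and 16, 17.4 and 14.6 in DU-145, and edgeR gave -2.12 with an adjusted p of 3.25e-25.

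For the core histones of the tetramer, H3C4 measured 34.7, 33.2 and 38.3 in BT-549 and 7.16, 6.41 and 8.41 in DU-145. Its groups were well apart, at -2.29 with an edgeR adjusted p of 7.56e-21. H4C4 measured 27.2, 30.4 and 28.6 in BT-549 against 3.94, 7.04 and 8.36 in DU-145, a log2 difference of -2.15. H4C13, a gene with 3 bins and little coverage, measured 3.75, 2.5 and 3.67 against 0.325, 0.384 and 1.17. Even there the groups did not overlap, and edgeR gave -2.47 (SE 0.36) with an adjusted p of 1.26e-08. The 6 members not called were H4C1, H3C1, H3C8, H2BC10, H2BC18 and H2AC18. H4C1 measured 78.4, 80.8 and 103 in BT-549 and 84.8, 106 and 87.0 in DU-145, and its groups overlapped at 0.09 with an edgeR adjusted p of 0.353.

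Bins within 250 bp of the start (core) and bins 500 to 1000 bp away on either side (flank) were then read apart. In the core, 1 of 45 members was higher in DU-145, where 37.8% of all promoters were, and 34 were lower, where 31.7% were, with medians of -0.71 and 0.06. In the flank, 0 of 46 were higher, against 14.2%, and 43 were lower, against 52.5%, with medians of -1.48 and -0.54. The whole-window difference was thus not confined to the flank. Line, tissue and medium differ together here and cannot be told apart, while the depths of the vehicle libraries overlapped between the lines.

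BT-549 with DOX was then compared with BT-549 vehicle, to ask how accessibility at histone genes differs after MUC1 silencing. These are the same vehicle libraries as above. Histone promoters are highly active in dividing cells, and bulk coverage cannot tell fewer cells in a state from less signal per cell. With edgeR, 0 of 55 members were higher, where 18.3% of 13264 promoters were, and 24 were lower, where 5.89% were. At an unadjusted p under 0.05, 3 were higher and 29 lower, DESeq2 called 0 and 30, and limma called 0 and 24. Over all 13264 promoters these were 3418 higher and 1290 lower unadjusted, 1406 and 1109 with DESeq2 and 2080 and 712 with limma. The median log2 difference was -0.28 over members and 0.10 over all promoters. Under TMM scaling, which moved the all-promoter median to -0.00, the member median was -0.39 with 0 higher and 32 lower. With TMM 1494 of all promoters were higher and 1279 lower. Member bins held 0.271%, 0.283% and 0.285% of coverage in vehicle and 0.209%, 0.227% and 0.227% with DOX, without overlap.

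The 24 comprised 3 of 4 H1, 7 of 16 H2A, 8 of 16 H2B, 2 of 10 H3 and 4 of 9 H4 genes. Divergent partners among them, such as H2BC8 and H2AC8, sum largely the same bins, so the 24 are not all separate loci. By place, they were 21 of 46 members on chromosome 6, 3 of 7 in the larger chromosome 1 cluster and 0 of 2 in the H2AC25 and H2BC26 pair. Median log2 differences were -0.33, -0.27 and 0.25 in these places. The family medians of CPM went from 62.6 to 44.5 for H1, from 89.9 to 75.0 for H2A and from 89.4 to 74.9 for H2B. For H3 they went from 47.2 to 40.5 and for H4 from 56.1 to 34.8. These calls rest on the summed window. When only the bin with the highest mean was used, edgeR called 5 of 55 members higher and 3 lower. Over all 13264 promoters that bin gave 1619 higher and 353 lower. The median was -0.20 over members and 0.13 over all promoters. The 8 members with the largest differences among calls without overlap then lost their calls, at -0.38 for H1-5, -0.50 for H2BC8 and H2AC8, -0.44 for H1-3, -0.17 for H4C5, -0.43 for H4C11, -0.24 for H2AC14 and -0.23 for H3C11.

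Linker H1 genes held the largest difference. H1-5 measured 69.6, 66.8 and 67.3 CPM in vehicle and 30.2, 32.5 and 48.3 with DOX. All vehicle libraries lay above all DOX libraries, and the third DOX library was the highest of its group. The edgeR difference was -0.86 (SE 0.15) with an adjusted p of 3.97e-05. H1-3 measured 35.2, 36.0 and 43.1 in vehicle and 16.5, 25.8 and 24.2 with DOX, with an edgeR difference of -0.78 (SE 0.18) and an adjusted p of 0.00150. Its groups did not overlap. H1-2 measured 86.9, 98.7 and 97.4 in vehicle and 59.9, 52.5 and 67.8 with DOX, at -0.64 (SE 0.12) with an edgeR adjusted p of 0.000132. H1-4 alone of the H1 genes with bins was not called, with 55.5, 60.5 and 55.9 in vehicle, 51.9, 43.8 and 60.2 with DOX, and an edgeR adjusted p of 0.523.

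Among the H2A and H2B pairs, H2BC8 measured 118, 128 and 111 in vehicle and 65.1, 75.2 and 68.3 with DOX. Every DOX library was below every vehicle library, and edgeR gave -0.78 (SE 0.11) with an adjusted p of 1.90e-06. H2AC8, which shares most of its bins, measured 118, 126 and 109 in vehicle and 63.2, 77.5 and 70.4 with DOX, a log2 difference of -0.74. H2AC14 measured 57.1, 58.3 and 58.9 in vehicle and 32.0, 39.4 and 36.7 with DOX, at -0.69 (SE 0.14) with an edgeR adjusted p of 0.000363. These groups did not overlap either. H2AC21, the highest H2A promoter of the line, measured 157, 166 and 171 in vehicle and 102, 122 and 94.3 with DOX. Of the genes with bins in BT-549 only, H2BC3 was called at -0.36 with an edgeR adjusted p of 0.0266 and H2BC9 was not, at 0.10. H2AC25 went the other way without passing the test, with 103, 112 and 121 in vehicle, 107, 162 and 131 with DOX, and an edgeR adjusted p of 0.0917.

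For H3, H3C11 measured 32.3, 31.3 and 39.3 in vehicle and 16.7, 25.9 and 21.4 with DOX. The groups did not overlap, and edgeR gave -0.68 (SE 0.19) with an adjusted p of 0.00628, a call lost without the third vehicle library at -0.58 and in a window of 500 bp at -0.51. H3C3, H3C7 and H3C12, which have bins in BT-549 only, were not called, at -0.23, -0.03 and -0.04. For H4, H4C5 measured 56.4, 64.7 and 64.0 in vehicle and 39.1, 35.5 and 36.0 with DOX. The DOX libraries were close together and below all vehicle libraries, at -0.74 (SE 0.14) with an edgeR adjusted p of 0.000132. H4C11 measured 28.9, 35.2 and 34.6 in vehicle and 21.1, 17.6 and 21.4 with DOX, again without overlap, at -0.71 (SE 0.18) with an edgeR adjusted p of 0.00385, or -0.38 and not called in a window of 500 bp. H4C8 was higher in each DOX library, with 58.9, 57.9 and 57.5 in vehicle and 75.5, 68.3 and 70.0 with DOX, but was not called at an edgeR adjusted p of 0.0709.

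**Figure D2:**
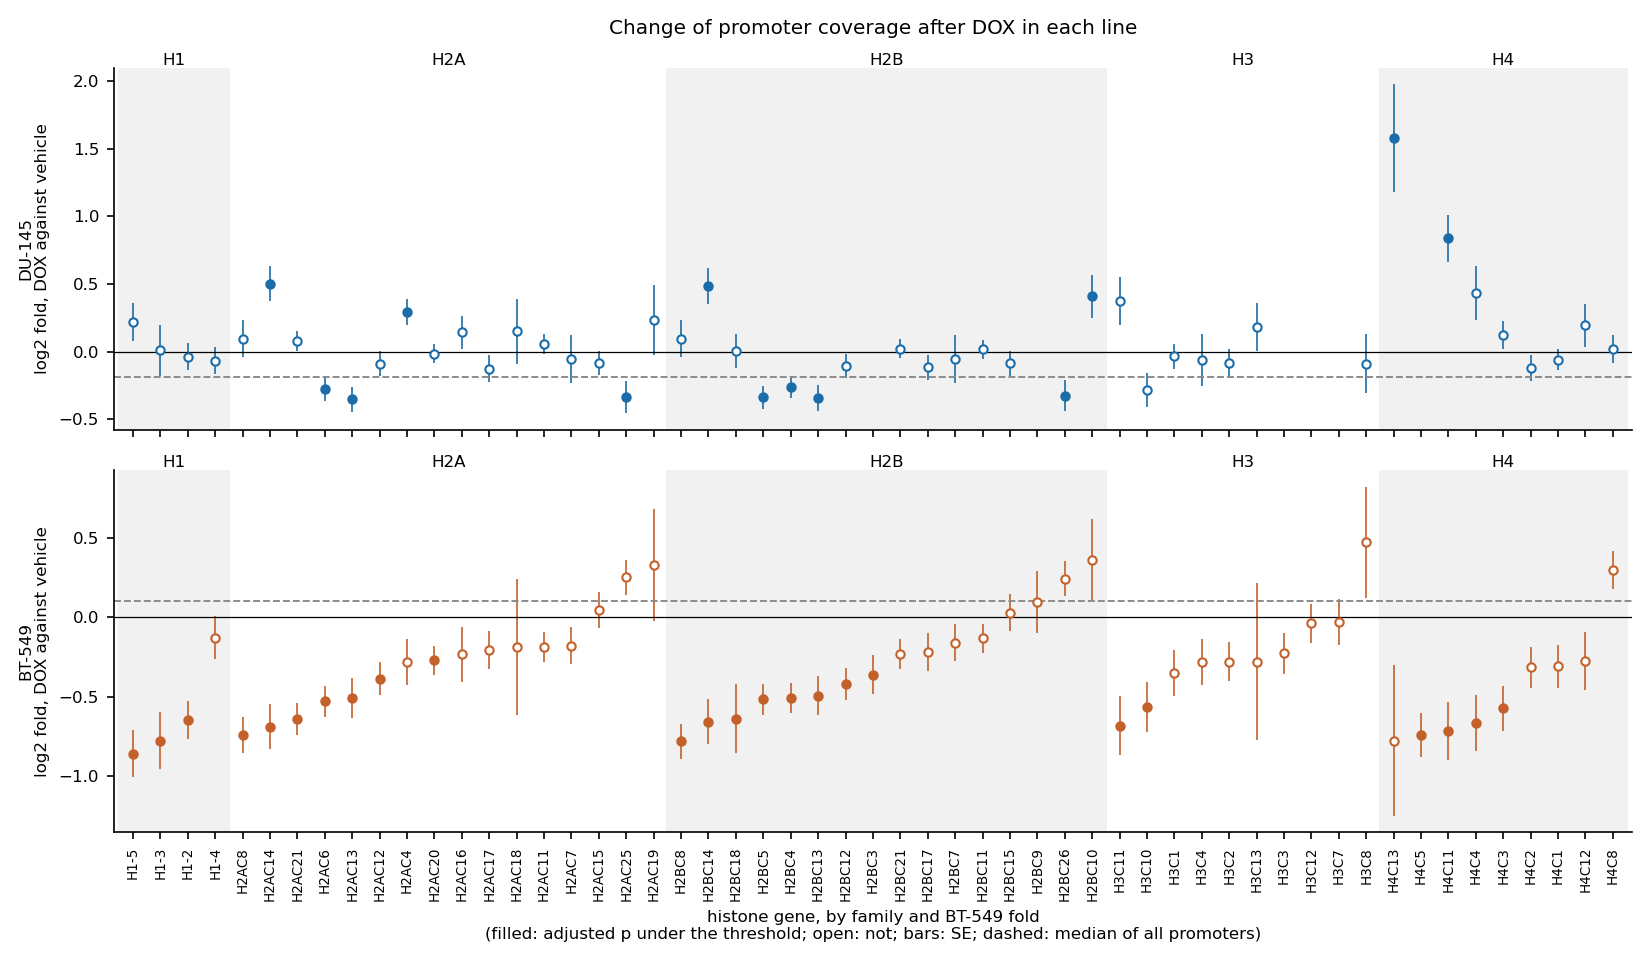
The log2 difference of DOX against vehicle (± SE, library-sum scaling) for each member in both lines, with filled points for those edgeR called and dashed lines for the all-promoter median, -0.19 in DU-145 and 0.10 in BT-549. In BT-549, 24 of 55 were called lower and 0 higher, and in DU-145 6 of 49 were called higher and 7 lower, a split that became 16 and 0 with TMM scaling.

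Coverage near and away from the start was then compared in BT-549. Accessible chromatin at an active promoter usually peaks next to the start. In the core, edgeR called 2 of 51 members higher, against 17.1% of promoters, and 8 lower, against 4.16%. In the flank it called 0 of 54 higher, against 5.95%, and 27 lower, against 2.77%. At an unadjusted p under 0.05 the flank counts were 0 higher and 33 lower, where 1683 of all 11791 flanks were higher and 1008 lower. The flank median was -0.56 over members and 0.05 over all promoters. Mean coverage per bin over members went from 6.41 ± 0.130 to 5.87 ± 0.216 in the core and from 3.08 ± 0.111 to 2.12 ± 0.116 in the flank. At other promoters it went from 4.44 to 4.96 in the core and from 1.89 to 1.99 in the flank. When limma tested the flank minus the core within each library, 0 of 50 members passed, as did 0% of 11430 promoters. At an unadjusted p under 0.05 it gave 0 members higher and 17 lower, with medians of -0.44 over members and -0.11 over all. At that limit 536 of all 11430 promoters were higher and 1250 lower. Member coverage was thus lower in both parts, and that the flank differed more than the core did not pass the direct test. H2AC21 went the other way, with a larger edgeR difference in the core, at -0.78, than in the flank, at -0.42.

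H1-5 was called lower in both parts. In the core it measured 24.6, 24.1 and 26.7 in vehicle and 15.8, 14.9 and 21.5 with DOX, at -0.51 with an edgeR adjusted p of 0.0371. In the flank it measured 28.0, 27.4 and 25.3 in vehicle and 7.82, 11.8 and 14.3 with DOX, at -1.22 (SE 0.20) with an edgeR adjusted p of 8.19e-05. Neither part had overlap between its groups. H1-3, H4C5, H2AC14 and H3C11 were not called in the core, at -0.58, -0.42, -0.31 and -0.35. H4C11 was called lower in the flank, with 13, 14.8 and 14.5 in vehicle and 5.28, 6.77 and 5.21 with DOX. Its edgeR flank difference was -1.29 with an adjusted p of 0.00102. Its core was not called, with overlapping groups, means of 5.16 and 5.03 and an edgeR difference of 0.04 (SE 0.35) at an adjusted p of 0.954. H4C5 had a flank of 17.3, 17.7 and 17.8 in vehicle and 6.20, 7.05 and 8.31 with DOX, far from overlap, at -1.27 with an edgeR adjusted p of 0.000367. H4C8 was 1 of the 2 members called higher in the core, where it measured 24.0, 25 and 24.0 in vehicle and 38.7, 36.3 and 40.0 with DOX. Its edgeR core difference was 0.66 with an adjusted p of 0.000883, and the other was H2AC25 at 0.43 with an adjusted p of 0.00499.

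**Figure D3:**
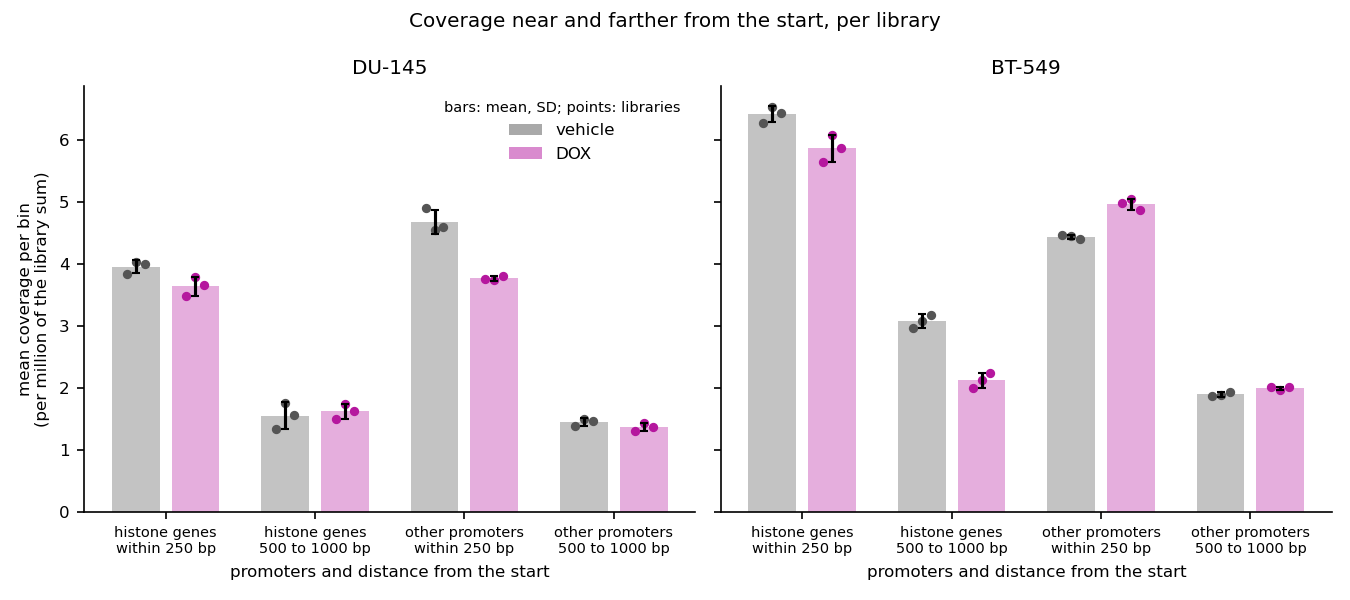
Mean CPM per bin in the core (within 250 bp of the start) and the flank (500 to 1000 bp away) by group, with bars for means, error bars for the SD and points for the 3 libraries of each group. Members in BT-549 went from 6.41 to 5.87 in the core and from 3.08 to 2.12 in the flank.

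Single bins were also tested over the whole table, with a differentially accessible region (DAR) defined by a fold change of at least 2 and, for BT-549, an adjusted p under 0.01. With edgeR, 0 of 691 member bins were DARs higher, against 2.07% of 472935 bins, and 31 were DARs lower, against 2.87%. The 31 lay at 14 genes, with 25 over 250 bp downstream of the start, 5 over 250 bp upstream and 1 within 250 bp. At a 2-fold change and an unadjusted p under 0.05, 6 bins were higher and 96 lower. The methods used the Wald test of DESeq2 in place of edgeR. With that test 0 bins were DARs higher and 1 lower, and the adjusted p limit used for DU-145 left 0 and 1. H1-5 had 6 DARs in a run from 437 to 937 bp downstream. H4C5 had 3 from 441 to 641 bp downstream, the largest at -2.09, and H4C11 had 3 from 459 to 659 bp. Leaving out the first DOX library reduced the 31 to 9, so this count rests on the tool and the libraries used. No count over all bins is given beside the unadjusted, DESeq2, other-limit and left-out-library counts, so these describe member bins only.

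DU-145 with DOX was compared with DU-145 vehicle, the same question in the prostate line. Under library-sum scaling most calls over all 13811 promoters were lower, 5602 against 910 higher, but TMM scaling gave 2165 lower and 2210 higher. In BT-549 the counts over all promoters were 781 lower and 2423 higher, or 1279 and 1494 with TMM, so the opposed directions of the lines depend on scaling. With edgeR, 6 of 49 members were higher, where 6.59% of all promoters were, and 7 were lower, where 40.6% were, but TMM scaling moved this split to 16 and 0. At an unadjusted p under 0.05, 8 were higher and 8 lower, and limma called 7 and 7. Over all promoters these were 1113 higher and 6179 lower unadjusted and 894 and 5569 with limma. RLE factors gave 16 higher and 0 lower, and DESeq2 with its own size factors gave 15 and 0. The counts over all promoters were 2158 higher and 2228 lower with RLE and 1982 and 2129 with DESeq2. The median log2 difference was -0.01 over members and -0.19 over all promoters, and TMM scaling moved these to 0.18 and 0.01. The direction of the members' calls in DU-145 therefore depends on scaling. The order of the medians turned under GC correction. With the GC trend of each library removed, 4 members were higher and 10 lower, where 1689 of all 13811 promoters were higher and 3533 lower. The median was then -0.10 over members and -0.07 over all promoters.

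Over the whole window 0 of 4 linker H1 genes were called in DU-145. The log2 differences were -0.04 at H1-2, 0.01 at H1-3, -0.07 at H1-4 and 0.22 at H1-5, and edgeR gave adjusted p-values of 0.776, 0.975, 0.611 and 0.212. Group means for H1-5 were 13.8 in vehicle and 16.2 with DOX. Of H2A genes, 2 of 16 were higher and 3 lower, and of H2B genes 2 of 14 were higher and 4 lower, under library-sum scaling. H2AC14 measured 18.2, 14.4 and 14.7 in vehicle and 21.7, 21.8 and 23.3 with DOX, without overlap, at 0.50 (SE 0.13) with an edgeR adjusted p of 0.00123. Its partner H2BC14 measured 17.9, 14.2 and 14.6 against 20.9, 21.3 and 22.8, a log2 difference of 0.49. H2AC4 measured 37.2, 36.7 and 36.8 in vehicle and 48.6, 44.4 and 42.6 with DOX. Every DOX library of H2AC4 was above vehicle, at 0.29 (SE 0.09) with an edgeR adjusted p of 0.00951, but the call was lost at 0.16 with the GC trend removed and at 0.19 in the highest bin. H2BC10 measured 8.68, 10.6 and 11.2 against 11.6, 14.2 and 14.4, at 0.41 (SE 0.16) with an edgeR adjusted p of 0.0278, and lost its call without the first vehicle library at 0.31 or without the second or last DOX library at 0.37 and 0.35. It was also lost with the GC trend removed at 0.26 and in the highest bin at 0.21, where H2AC14 and H2BC14 lost theirs at 0.36.

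Over the whole window the lower calls in DU-145 were at H2A and H2B genes, and each depended on scaling. They took in the divergent pairs H2AC13 with H2BC13, H2BC4 with H2AC6 and H2AC25 with H2BC26, whose partners share most of their bins. H2AC13 measured 47.8, 56.6 and 51.2 in vehicle and 36.6, 41.7 and 43.7 with DOX. Its groups did not overlap, at -0.35 (SE 0.09) with an edgeR adjusted p of 0.00169, but with TMM it was -0.16 and not called. H2BC13, its divergent partner, differed by -0.34, or -0.15 with TMM. H2BC5 measured 70.5, 80.2 and 69.7 in vehicle and 52.1, 62.4 and 59.8 with DOX, at -0.34 (SE 0.08) with an edgeR adjusted p of 0.000712, or -0.14 and not called with TMM. H2BC4 measured 73.0, 89.2 and 76.5 in vehicle and 60.0, 71.6 and 68.2 with DOX, at -0.26 with an edgeR adjusted p of 0.00745, or -0.06 and not called with TMM. Its call was also lost without the second vehicle library at -0.16 or without the first DOX library at -0.19. H2AC25, H2BC26 and H2AC6 were called at -0.34, -0.33 and -0.28 although their groups overlapped.

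Of H3 genes 0 of 7 were called in either direction in DU-145, and of H4 genes 2 of 8 were higher. H4C11 measured 5.83, 9.25 and 7.39 in vehicle and 13.1, 15.9 and 11.7 with DOX. Its lowest DOX library exceeded its highest vehicle library, and edgeR gave 0.84 (SE 0.17) with an adjusted p of 7.02e-05. H4C13, with 3 bins and no peak summit in any library, measured 0.325, 0.384 and 1.17 in vehicle and 1.29, 2.24 and 1.70 with DOX. The groups were apart but the lowest DOX value was near the highest vehicle value, at 1.58 (SE 0.40) with an edgeR adjusted p of 0.000884.

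In the core of DU-145 promoters, 2 of 46 members were higher, against 3.56% of promoters, and 9 lower, against 47.0%, with medians of -0.11 and -0.26. The 9 took in the linker gene H1-2 at -0.29 and the H3 genes H3C2 at -0.37 and H3C10 at -0.30, with edgeR adjusted p-values of 0.0386, 0.00367 and 0.0365, beside 6 H2A and H2B genes. H2BC14, H2BC10 and H2AC4 lost their higher calls in the core at 0.37, 0.31 and 0.20, and H4C11 and H2BC10 lost theirs in the flank at 0.56 and 0.58. In the flank, 4 of 48 were higher, against 7.20%, and 0 were lower, against 8.76%, with medians of 0.12 and 0.04. For the flank, edgeR gave 9 higher and 2 lower at an unadjusted p under 0.05. At that limit 1844 of all 12617 flanks were higher and 1843 lower. Mean coverage per bin over members went from 3.96 ± 0.103 to 3.64 ± 0.156 in the core and from 1.55 ± 0.213 to 1.62 ± 0.121 in the flank. At other promoters of DU-145 it went from 4.68 to 3.77 in the core and from 1.45 to 1.37 in the flank. At an adjusted p under 1e-05 and a 2-fold change, the limits for this line, edgeR called 0 of 540 member bins a DAR higher, against 5.0% of 709226 bins, and 0 lower, against 1.59%. DESeq2 also called 0 and 0, 14 bins were 2-fold higher and 0 lower at an unadjusted p under 0.05, and the limit used for BT-549 gave 5 higher. Counts over all bins are not given beside these alternatives, so they describe member bins only.

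The difference between the lines in their response to DOX was tested as an interaction, DU-145 minus BT-549, on the bins of both tables. A positive value means that the DOX difference was more positive in DU-145. With edgeR, 15 of 49 members were higher, against 3.98% of promoters, and 2 lower, against 38.4%. TMM scaling moved this split to 32 and 0, where 1379 of all 12591 promoters were higher and 1578 lower. At an unadjusted p under 0.05, 19 were higher and 3 lower, DESeq2 called 34 and 0, and limma called 15 and 2. Over all 12591 promoters these were 706 higher and 5599 lower unadjusted, 1505 and 1655 with DESeq2 and 462 and 4500 with limma. Medians were 0.25 over members and -0.33 over all promoters, or 0.57 and -0.01 with TMM. In the core 6 of 45 members were higher, against 2.54% of promoters, and 4 lower, against 43.4%, with medians of 0.00 and -0.43, and H4C11, H1-5 and H4C4 lost their calls there at 0.998, 0.54 and 0.58. In the flank 21 of 46 were higher, against 3.37%, and 0 lower, against 7.77%, with medians of 0.67 and -0.06. When the flank minus the core was tested directly, 3 of 42 members were higher and 0 lower, with a median of 0.56. Over all 10580 promoters 476 were higher and 31 lower in that test, with a median of 0.38. The highest bin alone gave 6 higher and 8 lower, with medians of -0.02 and -0.49. Over all 12591 promoters it gave 184 higher and 4706 lower. In that bin H1-5, H2AC14, H2BC14, H4C4 and H3C11 lost their calls at 0.16, 0.66, 0.66, 0.56 and 0.34.

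By role, H1-5 had an interaction of 1.07 (SE 0.21) with an edgeR adjusted p of 4.21e-05, since its mean went from 13.8 to 16.2 in DU-145 and from 67.9 to 37.0 in BT-549. H1-3 gave 0.76 with an edgeR adjusted p of 0.0217, H1-2 gave 0.60 and H1-4 was not called at 0.06. H2AC14 and H2BC14, which share bins, gave 1.08 (SE 0.20) and 1.046 (SE 0.20), with edgeR adjusted p-values of 1.98e-05 and 4.15e-05. On shared bins the H2AC14 mean went from 15.8 to 22.3 in DU-145 and from 45.4 to 30.3 in BT-549. H2AC21 gave 0.72 (SE 0.12) with an edgeR adjusted p of 6.91e-06, with means of 98.4 and 104 in DU-145 and 165 and 106 in BT-549. The pair H2AC25 and H2BC26 had the 2 negative calls, at -0.59 (SE 0.16) and -0.57 (SE 0.16), with edgeR adjusted p-values of 0.00311 and 0.00417, calls that TMM scaling removed. Both genes share most of their bins, so these calls are not separate loci.

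Among H3 genes, H3C11 gave 0.88 (SE 0.28) with an edgeR adjusted p of 0.00849, a call lost at 0.69 without the second DU-145 vehicle library. H4 genes held the largest values. H4C11 gave 1.55 (SE 0.25) with an edgeR adjusted p of 3.56e-06, as its mean went from 7.49 to 13.5 in DU-145 and from 32.9 to 20.03 in BT-549. H4C13 gave 2.36 (SE 0.60) with an edgeR adjusted p of 0.00138, on means of 0.628 and 1.74 in DU-145 and 3.30 and 1.88 in BT-549. In BT-549 alone its DOX difference was not called, at -0.78 with an edgeR adjusted p of 0.244. H4C4 gave 1.003 (SE 0.28) with an edgeR adjusted p of 0.00366, on shared-bin means of 6.44 and 8.78 in DU-145 and 28.7 and 19.2 in BT-549. At each of these genes BT-549 vehicle was the highest of the 4 groups.

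**Figure D4:**
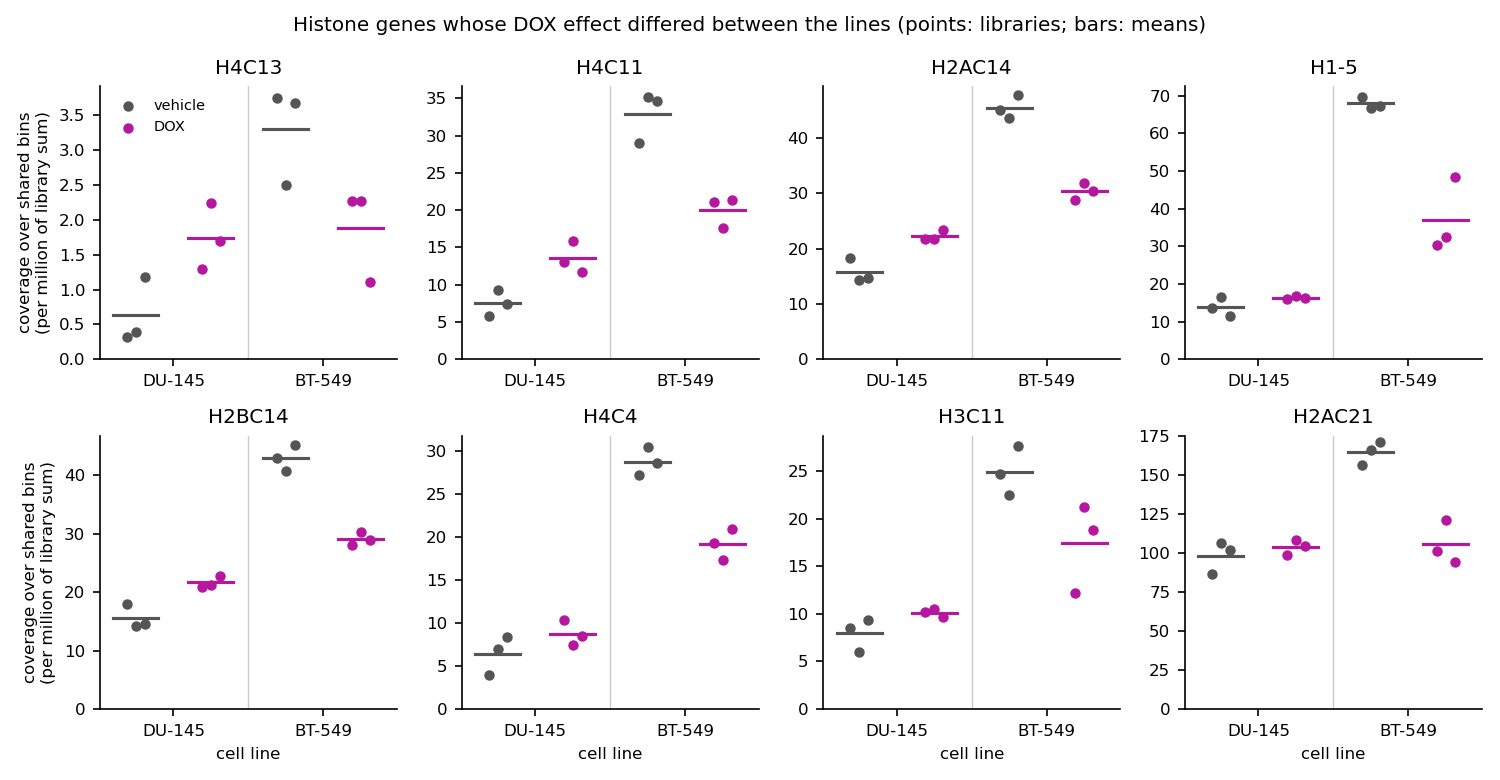
Coverage in CPM at the 8 members with the largest positive interaction and no overlap in the contrast, with points for the 3 libraries in each of the 4 groups. H4C11 averaged 7.49 and 13.5 in DU-145 and 32.9 and 20.03 in BT-549, in vehicle and with DOX.

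Genes that act on histone genes or mRNAs were read from 3 lists. Of 18 genes of histone gene expression and processing, edgeR called 0 higher and 7 lower in DU-145 (median -0.17) and 5 higher and 1 lower in BT-549 (median 0.15). Over all promoters 6.59% were higher and 40.6% lower in DU-145, with a median of -0.19, and 18.3% and 5.89% in BT-549, with a median of 0.10. In DU-145, CPSF3, the endonuclease that cleaves histone pre-mRNA, went from 113 ± 14.5 to 77.0 ± 3.77, at -0.56 with an edgeR adjusted p of 3.88e-08. NPAT went from 149 ± 5.69 to 111 ± 2.29, at -0.43 with an edgeR adjusted p of 3.21e-07, and CASP8AP2, a histone locus body protein, differed by -0.56, or 0.03 in its flank. In BT-549, SLBP, which binds the stem-loop, went from 63.0 ± 5.07 to 96.3 ± 6.04, at 0.61 with an edgeR adjusted p of 0.000147. ZNF473, a zinc finger protein of histone pre-mRNA processing, gave 0.59, and the exonuclease ERI1 gave 0.40, or -0.04 in its flank and 0.29 without a call under TMM. The ERI1 call was also lost without the first BT-549 DOX library at 0.26 and in the highest bin at 0.38. Between the lines in vehicle, 5 of 18 were higher in DU-145 and 9 lower (median -0.15), with ERI1 at -1.53, CPSF3 at 1.21 and LSM10, a part of the histone processing particle, at -1.23, where 33.6% and 40.1% of all promoters were. The interaction called 0 higher and 9 lower (median -0.37), beside 3.98% and 38.4% of all promoters, led by SLBP at -1.01 with an edgeR adjusted p of 2.11e-08, then CPSF3 at -0.75 and NPAT at -0.58, the last not called with TMM at -0.26. In the flank the interactions of SLBP and NPAT were not called at -0.58 and -0.41, and in BT-549 the core of ZNF473 was not called at 0.42.

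Variant histones, made outside S phase too, were called 0 higher and 5 lower of 11 in DU-145 (median -0.20) and 3 higher and 2 lower of 10 in BT-549 (median 0.32), beside 40.6% of all promoters lower in DU-145 and 18.3% higher in BT-549. The genes for H2A.Z and H3.3, H2AZ2, H2AZ1 and H3-3A, differed by -0.43, -0.47 and -0.42 in DU-145. In BT-549, H2AZ2 gave 0.44 and H3-3A 0.48, with edgeR adjusted p-values of 0.000362 and 0.000537, while the centromeric CENPA gave -0.55, or 0.02 when its start was placed at the gene's outer end and -0.11 in its highest bin. In vehicle, 2 of 10 variants were higher in DU-145 and 3 lower (median -0.04), with H3-3B at 0.98, H2AJ at -0.61, or -0.09 and not called in its highest bin, and the linker variant H1-10 at -0.66, beside 33.6% and 40.1% of all promoters. The interaction called 0 higher and 4 lower (median -0.36), beside 3.98% and 38.4% of all promoters with a median of -0.33, with H2AZ2 at -0.87, H3-3A at -0.91 and H2AZ1 at -0.72. In the flank alone H2AZ2 was not called in DU-145 at -0.08, in BT-549 at 0.53 or in the interaction at -0.65. H2AZ1 was not called there in DU-145 at -0.36 or in the interaction at -0.58, nor H3-3A in BT-549 at 0.21.

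Histone chaperones, which carry and deposit histones, were called 0 higher and 7 lower of 8 in DU-145 (median -0.35) and 3 higher and 0 lower in BT-549 (median 0.15), beside the same shares of 40.6% lower and 18.3% higher over all promoters. In DU-145 the H3 and H4 chaperones ASF1B and NASP differed by -0.49 and -0.43 and the remodeller ATRX by -0.83. In BT-549 the chromatin assembly factor subunits CHAF1A and CHAF1B gave 0.67 and 0.45. In the flank CHAF1A was 0.17 and not called, and CHAF1B was -0.15. CHAF1B was also not called with TMM at 0.34 or without the first vehicle library, the last vehicle library or the second DOX library, at 0.41, 0.40 and 0.38. HIRA, which deposits H3.3, gave 0.33 with an edgeR adjusted p of 0.0458, a marginal call lost under most alternatives, where the difference ranged from 0.19 to 0.42. In vehicle 3 of 8 were higher in DU-145 and 4 lower (median -0.14), with ASF1B at 0.90, ASF1A at -0.62 and NASP at -0.36, beside 33.6% and 40.1% of all promoters. The interaction called 0 higher and 5 lower (median -0.52), beside 3.98% and 38.4%, with CHAF1A at -1.004, or 0.54 in its flank, NASP at -0.61 and ASF1B at -0.60, and the calls of NASP and ASF1B were lost with TMM at -0.29 and -0.28. ASF1B also lost it in the flank at -0.17, and NASP in the core at -0.37 and in the highest bin at -0.41.

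The 20 other protein-coding genes inside the clusters gave a local comparison, with bins at 14. In BT-549, edgeR called 0 higher and 4 lower (median -0.38), namely BTN3A3 at -1.11, BTN3A1 at -0.69, BTN2A1 at -0.51 and ZNF322 at -0.39, beside 18.3% and 5.89% of all promoters. Their median coverage went from 22.0 to 18.5 there and from 16.9 to 16.5 in DU-145. In DU-145, 1 was higher, HFE at 0.48, and 1 lower, ZNF322 at -0.37 (median -0.01), beside 6.59% and 40.6%. In vehicle 2 were higher in DU-145 and 8 lower (median -0.45), beside 33.6% and 40.1%, and the interaction called 3 higher and 1 lower (median 0.23), beside 3.98% and 38.4%. By the mean of both vehicle groups the neighbours with the highest coverage were HMGN4, ZNF184 and ZNF322. ENSG00000282988 has the same bins as the member H2AC7, at 89.7 CPM in BT-549 vehicle, and is no separate measurement. Over the 13 neighbours more than 2.1 kb from a member, 0 were higher and 4 lower in BT-549 (median -0.39), 1 and 1 in DU-145 (median 0.03), 2 and 7 between the lines (median -0.44) and 3 and 1 in the interaction (median 0.25). The lower median with DOX in BT-549 was thus shared by the neighbours, at -0.38 beside -0.28 for the members. So was the positive interaction median, at 0.23 beside 0.25, and the line median was negative in both, at -0.45 beside -0.92. What the members and their neighbours share was not tested.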

How the data were processed

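ATAC-seq was deposited for 12 libraries, 3 in each of 4 groups, whose vehicle samples the labels call untreated while the protocol gives 0.1% DMSO. The authors used bwa-mem for alignment to GRCh38, Picard for the removal of duplicates and MACS2 2.2.7.1 for peaks at a q of 0.05. Deposited bin tables hold the estimated counts of fragments in 100-bp bins of merged peaks, which were not whole numbers. The authors kept regions found in at least 3 replicates and took the mean coverage of each bin, so a fragment that spans several bins counts in each and a window sum is not a number of fragments. The deposited peak lists give the fold enrichment at each summit (a ratio) and the -log10 q of each peak.

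Bins within 1 kb of each start were summed and rounded. Promoters with a total of at least 10 were fitted with the quasi-likelihood test of edgeR 4.0.16 in R 4.3.3, with library sums as offsets and Benjamini-Hochberg adjustment over all protein-coding promoters, at a threshold of 0.05. Bins were fitted likewise, with DARs called at a fold of 2 and adjusted p limits of 1e-05 (DU-145) and 0.01 (BT-549), the cutoffs in the methods. The authors applied those cutoffs to a DESeq2 Wald test. The steps were tested on simulated data. Alternatives were TMM and RLE scaling, DESeq2 1.42.0, limma 3.58.1, other filters, windows and starts, GC correction, a replicate block, leaving out libraries and leaving out members that share any 50-mer with another place in the members' windows. The split into core and flank and the shared-bin library sum for the interaction were added after seeing the data. Members without bins were left out of the fits.

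In each comparison, members were named by the largest differences in each direction among calls without overlap, up to 8. The highest and lowest of each family, every H1 gene, members without bins and copies were named too. From the lists of expression and processing genes, variant histones and chaperones, up to 3 genes a comparison were named by smallest adjusted p. Markers, MUC1 and the neighbours completed the lists. Members and lists were chosen with earlier results of these data known.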

Additional observations from a re-analysis of the deposited data

Results flagged for a closer look

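The interaction of line and DOX was picked out because the DOX difference of these members was not the same in both lines by the edgeR test. It called 15 members with a more positive difference in DU-145 and 2 with a more negative one, where 3.98% and 38.4% of all promoters were called. With TMM the counts were 32 and 0 and with the shared-bin sum 28 and 0, so both negative calls were lost. Over all 12591 promoters they were 1379 and 1578 with TMM and 908 and 2859 with the shared-bin sum. The highest bin gave 6 and 8, where all promoters gave 184 and 4706. The core gave 6 and 4 of 45, beside 2.54% and 43.4%. In the highest bin H1-5, H2AC14, H2BC14, H4C4 and H3C11 lost their calls. The interaction is not particular to the members, since its median was 0.25 over members and 0.23 over their neighbours in the clusters. It was -0.33 over all promoters. With library sums over the whole window, the log2 values were 2.36 at H4C13, 1.55 at H4C11, 1.08 at H2AC14 and 1.07 at H1-5. They were 1.046 at H2BC14, 1.003 at H4C4, 0.88 at H3C11 and 0.72 at H2AC21. At H2AC25 and H2BC26 they were -0.59 and -0.57. H4C13 has 3 bins, little coverage and no peak summit in any library, and its DOX difference in BT-549 alone was not called. The windows of H4C11 and H2AC14 share 21.1% and 16.8% of their 50-mers with those of H4C12 and H2BC13.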

How the results depend on the processing

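Of 1458 values of 70 gene results under alternatives, 1343 kept direction and call, 109 were weaker and 6 reversed. Of 240 counts, 192 were marked the same and 48 moved. A count marked the same need not equal the main count, and not every changed count is listed here. The cause of these changes was not tested. Members higher in DU-145 with DOX, 6 of 49, became 16 with TMM, 16 with RLE, 15 with DESeq2, 2 with the highest bin, 2 in the core, 4 with GC correction and 2 of 18 without members that share any 50-mer with another place in the members' windows (here copies), and ranged from 5 to 9 when a library was left out. Members lower there, 7, became 0 with TMM, RLE, DESeq2, in the flank and without copies but 10 with GC correction, 8 with the highest bin and 9 in the core, and ranged from 5 to 7. Over all promoters of DU-145 the highest bin gave 486 higher and 6558 lower. In BT-549, members higher, 0, became 2 with a 500-bp window, 5 with the highest bin, 1 with the gene's outer end, 1 with GC correction and 2 in the core, and ranged from 0 to 2. Members lower, 24, became 32 with TMM, 31 with RLE, 30 with DESeq2 and 27 of 54 in the flank. They became 16 of 51 with a 500-bp window, 21 with GC correction, 3 with the highest bin and 8 of 51 in the core. They were 11 of 24 without copies and ranged from 20 to 24 when a library was left out. Over all promoters of BT-549, RLE gave 1517 higher and 1267 lower, the 500-bp window 2375 and 704 and GC correction 1705 and 1075. Between lines, members higher in DU-145, 0, became 1 with 500 bp, 2 with the highest bin, 1 with the shared-bin sum and 1 in the core, ranging from 0 to 1. Members lower there, 43 of 49, became 33 with the highest bin, 38 of 45 with 500 bp and 34 of 45 in the core. They were 15 of 18 without copies and ranged from 41 to 43 when a library was left out. Between lines over all promoters, the highest bin gave 5162 higher and 3286 lower, 500 bp 4468 and 4459 and the shared-bin sum 5100 and 4165. For the interaction, 15 higher became 32 with TMM, 33 with RLE, 34 with DESeq2, 28 with the shared-bin sum and 21 of 46 in the flank. They became 11 of 45 with 500 bp, 11 with GC correction, 6 with the highest bin and 6 in the core. They were 10 of 18 without copies and ranged from 13 to 17 when a library was left out. The 2 lower became 0 with TMM, RLE, DESeq2, the shared-bin sum, the flank and without copies. They became 8 with the highest bin, 4 in the core and 3 with 500 bp or GC correction, ranging from 2 to 3. For the interaction over all promoters, RLE gave 1426 higher and 1516 lower, 500 bp 389 and 5059 and GC correction 1023 and 2747. DARs higher in DU-145 became 5 with the other line's limit. In BT-549 DARs higher ranged from 0 to 1, and the 31 lower became 1 with DESeq2, 1 with the other limit and from 9 to 31 with a library left out. These DAR counts under alternatives have no count over all bins beside them. Reversed values were CASP8AP2 in DU-145 in the flank at 0.0334, H4C11 in BT-549 in the core at 0.0374 with overlapping groups, ERI1 in BT-549 in the flank at -0.0446, CENPA in BT-549 at the gene's outer end at 0.0229, CHAF1B in BT-549 in the flank at -0.15 and the interaction of CHAF1A in the flank at 0.54. With the replicate block the counts were 7 and 8 in DU-145, 0 and 26 in BT-549, 0 and 43 between lines, 17 and 2 for the interaction and 28 DARs lower in BT-549. Same-number residual correlations were 0.184, 0.106 and -0.0302 in DU-145, -0.0144, 0.115 and 0.0388 in BT-549 and 0.0664, 0.0123 and -0.0690 between lines. The core, the flank and the shared-bin sum for the interaction were chosen after seeing the data. The DOX libraries of BT-549 were the shallowest, which limits the precision of the BT-549 DOX values and of the interaction.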
